A study of Mus musculus with 10 samples.

Results

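Blood lineage transcription factors are the nuclear proteins that direct haematopoietic progenitors toward macrophages, neutrophils, red cells, platelets, mast cells or lymphocytes, and 37 of their genes were followed here in mouse FDB1 cells. They were chosen by gene symbol from a list of such factors, with earlier results of these data known. Of the 37, 36 had at least 1 probe with that symbol alone and 1, Runx2, had none. The 36 genes had 44 probes among the 15097 genes with a symbol on the arrays. Every gene with a probe was tested, since no filter on low values was applied.

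RNA was measured in 4 groups. Y577F cells, FDB1 cells that carry the FI-Delta Y577F receptor, were sampled after 72 h without IL-3 and at 0 h, and FI-Delta cells, which carry the FI-Delta receptor, were sampled at the same times. All of them are FDB1 cells, a factor-dependent myeloid progenitor line kept in 500 U/mL mouse IL-3, and at 0 h they were washed and left without factor. FI-Delta is a constitutively active form of the beta chain through which GM-CSF, IL-3 and IL-5 signal, and Y577F replaces a tyrosine of its cytoplasmic tail with phenylalanine. Both lines thus hold an active receptor, and neither is the parental line. Whether a line was 1 clone or a pool is not given in the sources used here. The design text gives 2 biological replicates for each line.

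Each of 10 arrays set a pair of RNAs against each other in the Cy5 and Cy3 channels, and every value below is a log2 ratio turned to read 72 h over 0 h or Y577F over FI-Delta. Time was compared on 2 arrays in Y577F cells and on 3 in FI-Delta cells. By the labels' numbers, FI-Delta arrays 1 and 2 carried identical RNA with the dyes swapped. The lines were compared on 2 arrays at 72 h and on 3 at 0 h. By the same numbers, 0 h arrays 1 and 2 shared their FI-Delta RNA, and 0 h arrays 2 and 3 shared their Y577F RNA. Arrays with the same sign below are therefore not all independent replicates. The labels do not say which dye is on top of the deposited ratios or their log base. Cy5 over Cy3 was taken as likely and base 2 as what limma writes, and the opposite order would turn every direction given here. A ratio gives no level, so the defining markers of the cells could be compared between groups but not called present or absent, and levels were not compared between genes. Precision is limited by how few arrays there are, and across the 36 genes the median standard error (SE) was between 0.081 and 0.104 in the 5 comparisons. Across all features, the correlation between pairs of turned arrays was 0.63 in Y577F cells over time, 0.236 (the dye swap), 0.539 and 0.351 in FI-Delta cells over time, 0.519 between the lines at 72 h, and 0.087, -0.037 and 0.357 at 0 h. The 2 values nearest 0 were those of 0 h array 1 with the other 0 h arrays, which both had the opposite dye order to it. The pairs at 0.357 at 0 h and at 0.539 in FI-Delta cells had the same dye order, and every other pair had opposite orders. A dye bias would be shared by arrays of the same order, and its part in these correlations was not tested. No RNA came from cells kept in IL-3 for 72 h, so the lack of IL-3, the wash and the days in culture cannot be told apart. In such bulk RNA, fewer cells of a type and less RNA in each cell cannot be told apart either.

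These factors act in partly opposed sets. PU.1, encoded by Spi1, and its interferon regulatory partners drive macrophage and dendritic cell genes, Gata1 with its cofactors drives red cell, platelet and mast cell genes, and Tal1, Lmo2, Lyl1, Myb, Meis1, Hoxa9 and Runx1 maintain progenitors. In myeloid progenitors, the balance between Irf8 and other factors is known to bear on the choice between monocyte and neutrophil fates.

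Among the 36 genes, Irf5, Zeb2 and Irf8 rose by more than 2-fold and Myb fell by more than 2-fold in Y577F cells after 72 h without IL-3, and Sox4 alone changed more than 2-fold in FI-Delta cells, where it fell. In Y577F cells 16 of 36 (44.4%) were called at an adjusted p under 0.05 by limma, where 18.0% of all 20243 features were called. Of these, 9 rose (25.0%, against 9.28% of all features) and 7 fell (19.4%, against 8.75%). In FI-Delta cells 11 (30.6%) were called, against 8.16% of all features, with 5 that rose (13.9%, against 5.19%) and 6 that fell (16.7%, against 2.97%). Between the lines at 72 h, 13 (36.1%) were called, against 12.9% of all features, with 9 higher in Y577F cells (25.0%, against 6.44%) and 4 lower (11.1%, against 6.45%). At 0 h 1 gene (2.78%) was called, against 1.42% of all features, and it was higher in Y577F cells, where 0.934% of all features were higher and 0.484% lower. The test of whether the lines changed unequally over 72 h was called for 11 genes (30.6%), against 9.24% of all features, with 9 positive (25.0%, against 4.33%) and 2 negative (5.56%, against 4.91%). These counts depended on single arrays, with 4 in FI-Delta cells over time without FI-Delta time array 3 and 6 without 0 h array 1, 8 between the lines at 72 h and 7 in the difference without 72 h array 2, and 0 at 0 h without 0 h array 1, where limma gave 2 at an unadjusted p under 0.05. With each RNA extract as a replicate block and no dye term, a change of both choices together, 12 were called in Y577F cells, 2 in FI-Delta cells, 8 at 72 h, 3 in the difference and 0 at 0 h, where limma gave 5 at an unadjusted p under 0.05. The block fit gave each extract its own coefficient, which left fewer residual degrees of freedom than the main fit. Dropping the dye term alone gave 15, 9, 13 and 9 in Y577F cells, in FI-Delta cells, at 72 h and in the difference, and 1 at 0 h.

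The median over the 36 genes stayed close to that of all features in each comparison, with 0.036 and 0.007 in Y577F cells over time, -0.007 and -0.005 in FI-Delta cells over time, 0.066 and 0.007 between the lines at 72 h, 0.021 and -0.006 at 0 h, and 0.068 and 0.013 for the difference of the changes. The median size of change, without its sign, was 0.252 for the 36 genes and 0.127 for all features in Y577F cells, and 0.211 and 0.106 in FI-Delta cells. In all, 20 of the 36 were called in at least 1 comparison and 16 in none. The heatmap of log2 ratios shows every gene on every array.

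**Figure D1:**
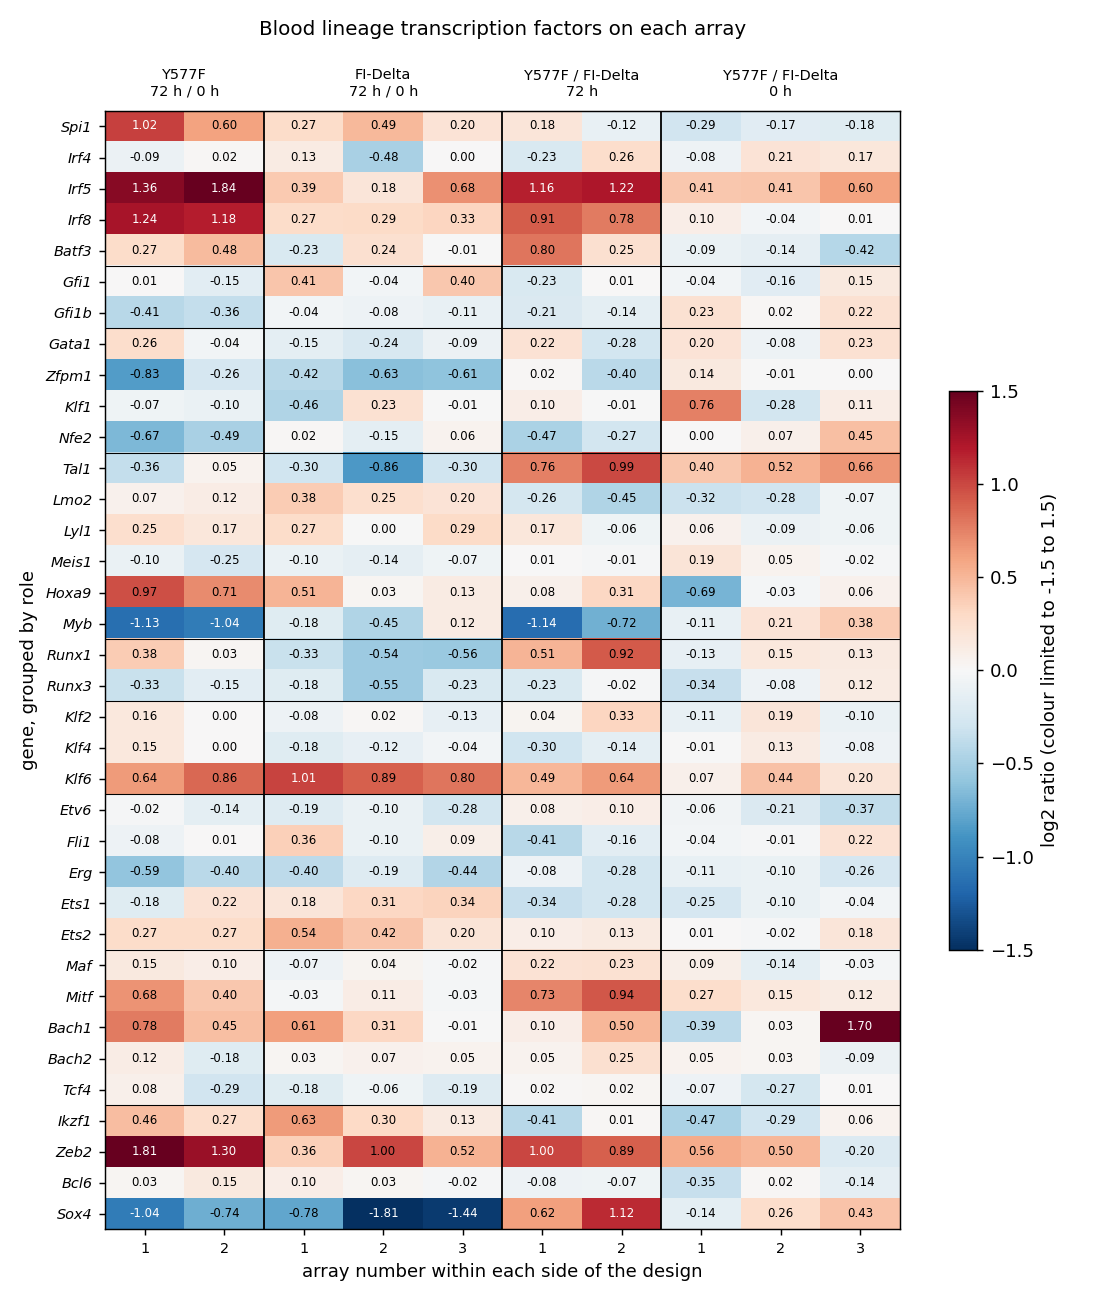
Each row is a gene, grouped by role, each column an array, grouped by the side of the design, and each cell holds the log2 ratio (72 h over 0 h in the left 5 columns, Y577F over FI-Delta in the right 5), with red above 0 and blue below. Irf5, Irf8 and Zeb2 are at 1.18 or more on both Y577F time arrays, Myb is at -1.04 or less on both, and Sox4 reaches -1.81 on a FI-Delta time array.

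PU.1 and the factors that work with it were the group with the most genes that rose. Of the 5, 4 rose in Y577F cells (Irf5, Irf8, Spi1 and Batf3), and 3 rose in FI-Delta cells (Irf5, Irf8 and Spi1), where without time array 3 of that line the 3 calls were lost. Irf5 (chr6:29526130-29541869 on GRCm38.p6, as for the coordinates of the other genes), which drives inflammatory cytokine genes in macrophages, had time ratios of 1.36 and 1.84 in Y577F cells, against 0.39, 0.18 and 0.68 in FI-Delta cells. Both Y577F arrays lay above all 3 FI-Delta arrays. Its change was 1.49 ± 0.11 in Y577F cells (2.81-fold, adjusted p = 3.6e-06) and 0.54 ± 0.11 in FI-Delta cells (1.46-fold, adjusted p = 0.012). That call in FI-Delta cells was lost without FI-Delta time array 3 (0.53, adjusted p = 0.075). Set directly against FI-Delta RNA, Y577F RNA had Irf5 ratios of 1.16 and 1.22 at 72 h and of 0.41, 0.41 and 0.60 at 0 h. All 5 arrays were above 0, and the fitted difference was 1.31 ± 0.11 at 72 h (adjusted p = 1.2e-05) and 0.36 ± 0.10 at 0 h, which was not called (adjusted p = 0.13).

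Irf8 (chr8:120736358-120756694), the PU.1 partner that monocytes and dendritic cells need, had time ratios of 1.24 and 1.18 in Y577F cells, against 0.27, 0.29 and 0.33 in FI-Delta cells. The arrays of a line differed by less than the lines did. Its change was 1.19 ± 0.08 in Y577F cells (2.28-fold, adjusted p = 1.3e-06) and 0.35 ± 0.08 in FI-Delta cells (1.27-fold, adjusted p = 0.017), and the second call was lost without FI-Delta time array 3 or 0 h array 1 (0.33 to 0.34, adjusted p between 0.056 and 0.11). Between the lines Irf8 had ratios of 0.91 and 0.78 at 72 h (0.87 ± 0.08, adjusted p = 1.5e-05) and of 0.10, -0.04 and 0.01 at 0 h (0.02 ± 0.07, adjusted p = 0.93). The 0 h arrays thus lay on both sides of 0, and the 72 h arrays did not.

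The promoters of Irf8 and Irf5 are shown because these genes rose in both lines and rose more in Y577F cells. The windows run from 250 bases before a RefSeq start to 50 bases after it on GRCm38.p6, 5′ to 3′ along the gene, at chr8:120736108-120736407 on the plus strand for Irf8 and chr6:29526375-29526674 on the plus strand for Irf5. Capitals mark matches to any of 5 short motifs that were searched and are spelled out further on. Irf8 holds a pair of matches to the STAT site, at positions -171 and -153 from the start, and the Irf5 window holds no match to the letters searched. The Irf8 window covers the first base of its gene. The Irf5 window lies inside the span of its gene given above, so the sequence before the first base of Irf5 is not shown.
Irf8: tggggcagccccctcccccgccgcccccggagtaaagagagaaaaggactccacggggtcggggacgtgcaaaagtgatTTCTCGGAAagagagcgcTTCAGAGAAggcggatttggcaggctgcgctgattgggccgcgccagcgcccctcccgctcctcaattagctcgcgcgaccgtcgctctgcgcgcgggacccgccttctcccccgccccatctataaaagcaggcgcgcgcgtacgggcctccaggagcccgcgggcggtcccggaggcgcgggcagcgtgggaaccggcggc
Irf5: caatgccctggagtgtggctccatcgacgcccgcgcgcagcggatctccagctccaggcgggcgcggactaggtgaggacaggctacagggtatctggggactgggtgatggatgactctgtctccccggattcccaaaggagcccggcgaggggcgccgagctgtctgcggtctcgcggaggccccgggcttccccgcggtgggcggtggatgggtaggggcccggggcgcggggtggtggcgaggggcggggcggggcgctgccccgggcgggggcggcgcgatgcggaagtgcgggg

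Spi1 itself had time ratios of 1.02 and 0.60 in Y577F cells, against 0.27, 0.49 and 0.20 in FI-Delta cells. All 5 were above 0 and the lines did not overlap. It rose by 0.74 ± 0.10 in Y577F cells (adjusted p = 0.00027) and by 0.41 ± 0.10 in FI-Delta cells (adjusted p = 0.030). The call in FI-Delta cells was lost without 72 h array 1 or 2, Y577F time array 1, or FI-Delta time array 2 or 3 (0.33 to 0.47, adjusted p between 0.053 and 0.089). Between the lines Spi1 had ratios of 0.18 and -0.12 at 72 h and of -0.29, -0.17 and -0.18 at 0 h, and neither difference was called. The difference in change, 0.33 ± 0.11, missed the threshold (adjusted p = 0.095).

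Batf3, needed for cross-presenting dendritic cells, had time ratios of 0.27 and 0.48 in Y577F cells, against -0.23, 0.24 and -0.01 in FI-Delta cells. It rose by 0.48 ± 0.12 in Y577F cells (adjusted p = 0.015), a call lost without Y577F time array 2 (0.42, adjusted p = 0.11), and was at -0.06 ± 0.12 in FI-Delta cells. At 72 h it was higher in Y577F cells, with ratios of 0.80 and 0.25 (0.42 ± 0.12, adjusted p = 0.038), a call lost without FI-Delta time array 1, Y577F time array 2, 0 h array 1 or 2, or 72 h array 1 or 2 (0.21 to 0.49). Irf4, of plasma cells and dendritic cells, had arrays on both sides of 0 in each set of arrays and lay between -0.11 and 0.06 in all 5 comparisons, with no call.

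The Gfi repressors and the red cell and platelet factors held calls in 1 direction only, downward. Zfpm1 encodes the Gata1 cofactor Friend of GATA. Its time ratios were -0.83 and -0.26 in Y577F cells, against -0.42, -0.63 and -0.61 in FI-Delta cells. All 5 were below 0 and the lines overlapped. It fell by 0.61 ± 0.12 in Y577F cells (adjusted p = 0.0045), a call lost without Y577F time array 1 (-0.43, adjusted p = 0.11), and fell by 0.49 ± 0.13 in FI-Delta cells (adjusted p = 0.037), a call lost without any 1 of the 0 h arrays, 72 h array 1, Y577F time array 1, or FI-Delta time array 2 or 3 (-0.54 to -0.39).

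Nfe2, the leucine zipper factor of platelet formation, had time ratios of -0.67 and -0.49 in Y577F cells, against 0.02, -0.15 and 0.06 in FI-Delta cells. The lines did not overlap. It fell by 0.58 ± 0.09 in Y577F cells (adjusted p = 0.00073) and was at -0.06 ± 0.09 in FI-Delta cells (adjusted p = 0.79). After 72 h it was lower in Y577F cells on both arrays, -0.47 and -0.27 (-0.37 ± 0.09, adjusted p = 0.015), a call lost without either of them (-0.38 to -0.37, adjusted p between 0.097 and 0.11), while at 0 h the arrays gave 0.00, 0.07 and 0.45. Gfi1b, a repressor of red cell and platelet precursors, had time ratios of -0.41 and -0.36 in Y577F cells, against -0.04, -0.08 and -0.11 in FI-Delta cells. It fell by 0.39 ± 0.08 in Y577F cells (adjusted p = 0.0051), a call lost without Y577F time array 1 (-0.38, adjusted p = 0.062), and its difference in change was just outside the threshold (-0.32 ± 0.09, adjusted p = 0.051).

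Gata1 and Klf1, which activate globin and other red cell genes, were called in no comparison. Over time Gata1 was at 0.01 ± 0.11 in Y577F cells and 0.03 ± 0.11 in FI-Delta cells, and Klf1 at -0.11 ± 0.13 and 0.05 ± 0.14. The FI-Delta time arrays of Gata1 were at -0.15, -0.24 and -0.09, all opposite in sign to the fitted value. The Gata1 difference in change was 0.25 from the time arrays alone and -0.15 from the arrays between the lines, so its sign was not settled. Array values of Klf1 at 0 h ran between -0.28 and 0.76. Gfi1, the repressor that neutrophil precursors need, was at 0.00 ± 0.10 in Y577F cells and 0.20 ± 0.10 in FI-Delta cells (adjusted p = 0.32) and was not called either.

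The progenitor factors held calls in both directions. Myb (chr10:21124930-21160984), which keeps immature blood cells dividing, had time ratios of -1.13 and -1.04 in Y577F cells, against -0.18, -0.45 and 0.12 in FI-Delta cells. Every Y577F value was below every FI-Delta value. It fell by 1.12 ± 0.09 in Y577F cells (2.18-fold, adjusted p = 7.3e-06) and was at -0.15 ± 0.10 in FI-Delta cells (adjusted p = 0.45). At 72 h it was lower in Y577F cells on both arrays, -1.14 and -0.72 (-0.90 ± 0.09, adjusted p = 5.8e-05), and at 0 h its ratios were -0.11, 0.21 and 0.38 (0.08 ± 0.08, adjusted p = 0.76).

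Tal1 (chr4:115056426-115071755), a basic helix-loop-helix factor of stem cells and red cell precursors, had time ratios of -0.36 and 0.05 in Y577F cells, against -0.30, -0.86 and -0.30 in FI-Delta cells. The lowest Y577F value lay within the FI-Delta range. It fell by 0.52 ± 0.08 in FI-Delta cells (adjusted p = 0.0024) and was at -0.14 ± 0.08 in Y577F cells (adjusted p = 0.28). Tal1 was also the 1 gene called between the lines at 0 h, with ratios of 0.40, 0.52 and 0.66 (0.49 ± 0.07, adjusted p = 0.0063), a call lost without 0 h array 1 (0.44, adjusted p = 0.17). At 72 h the ratios were 0.76 and 0.99 (0.86 ± 0.08, adjusted p = 2.7e-05). All 5 arrays between the lines were above 0, and both 72 h values were above all 3 at 0 h. Some further probes list Tal1 with another symbol and were not used.

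Hoxa9, a homeobox factor of early progenitors, had time ratios of 0.97 and 0.71 in Y577F cells, against 0.51, 0.03 and 0.13 in FI-Delta cells. It rose by 0.77 ± 0.13 in Y577F cells (adjusted p = 0.0013) and was at 0.21 ± 0.13 in FI-Delta cells (adjusted p = 0.45). Between the lines it was not called at 72 h (0.08 and 0.31 on the arrays) or at 0 h (-0.69, -0.03 and 0.06). Lmo2, the bridge between Tal1 and its partners, was lower in Y577F cells at 72 h, at -0.26 and -0.45 (-0.37 ± 0.09, adjusted p = 0.015), a call lost without 72 h array 2 (-0.30, adjusted p = 0.17). Over time Lmo2 was at 0.10 ± 0.09 in Y577F cells and 0.25 ± 0.09 in FI-Delta cells, neither called. Lyl1, a close relative of Tal1, and Meis1, the DNA-binding partner of Hoxa9, lay between -0.17 and 0.24 in all 5 comparisons with no call.

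Runx1 (chr16:92601466-92826074), needed for the first blood stem cells and for platelet precursors, had time ratios of 0.38 and 0.03 in Y577F cells, against -0.33, -0.54 and -0.56 in FI-Delta cells. The lines did not overlap and had opposite signs. It fell by 0.51 ± 0.11 in FI-Delta cells (adjusted p = 0.014), a call lost without FI-Delta time array 3 or 0 h array 1 (-0.47 to -0.46, adjusted p between 0.0503 and 0.107), and was at 0.19 ± 0.11 in Y577F cells (adjusted p = 0.28). After 72 h it was higher in Y577F cells, at 0.51 and 0.92 (0.73 ± 0.11, adjusted p = 0.00075), and at 0 h its ratios were -0.13, 0.15 and 0.13. Runx3, of T cells and dendritic cells, had time ratios of -0.33 and -0.15 in Y577F cells, against -0.18, -0.55 and -0.23 in FI-Delta cells. It fell by 0.27 ± 0.08 in Y577F cells (adjusted p = 0.040) and fell by 0.33 ± 0.08 in FI-Delta cells (adjusted p = 0.031). Neither call held in each leave-one-out fit, with 8 arrays ending the first (0 h 1 and 2, 72 h 1 and 2, FI-Delta time 2 and 3, and Y577F time 1 and 2, at -0.32 to -0.25) and 4 the second (0 h 1, 72 h 1, and FI-Delta time 2 and 3, at -0.34 to -0.31). Neither was called from a single probe.

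Probes disagreed within some of the 6 genes that had more than 1. For Runx1, probe 1 was at -0.04 ± 0.08 in Y577F cells and -0.19 ± 0.09 in FI-Delta cells, and probe 2 at 0.41 ± 0.16 and -0.83 ± 0.16, of which the last was called (adjusted p = 0.0069). The difference in change was called for probe 2 (1.25 ± 0.18, adjusted p = 0.0012) and not for probe 1 (0.15 ± 0.09, adjusted p = 0.37), so the Runx1 results rest on 1 of its probes. For Nfe2, both probes fell in Y577F cells (-0.53 ± 0.12 and -0.62 ± 0.08), while in FI-Delta cells probe 1 was at 0.26 ± 0.12, not called, and probe 2 fell (-0.38 ± 0.08, adjusted p = 0.011). The Nfe2 difference in change was called for probe 1 alone (-0.79 ± 0.13, adjusted p = 0.0035, against -0.24 ± 0.09 and adjusted p = 0.12 for probe 2). Between the lines at 72 h, Nfe2 was likewise called for probe 1 (-0.60 ± 0.12, adjusted p = 0.0049) and not for probe 2 (-0.15 ± 0.08, adjusted p = 0.26). For Fli1, probe 1 was lower in Y577F cells at 72 h (-0.38 ± 0.10, adjusted p = 0.025) and probe 2 was not called (-0.09 ± 0.10). Which transcripts each probe reads was not tested.

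**Figure D2:**
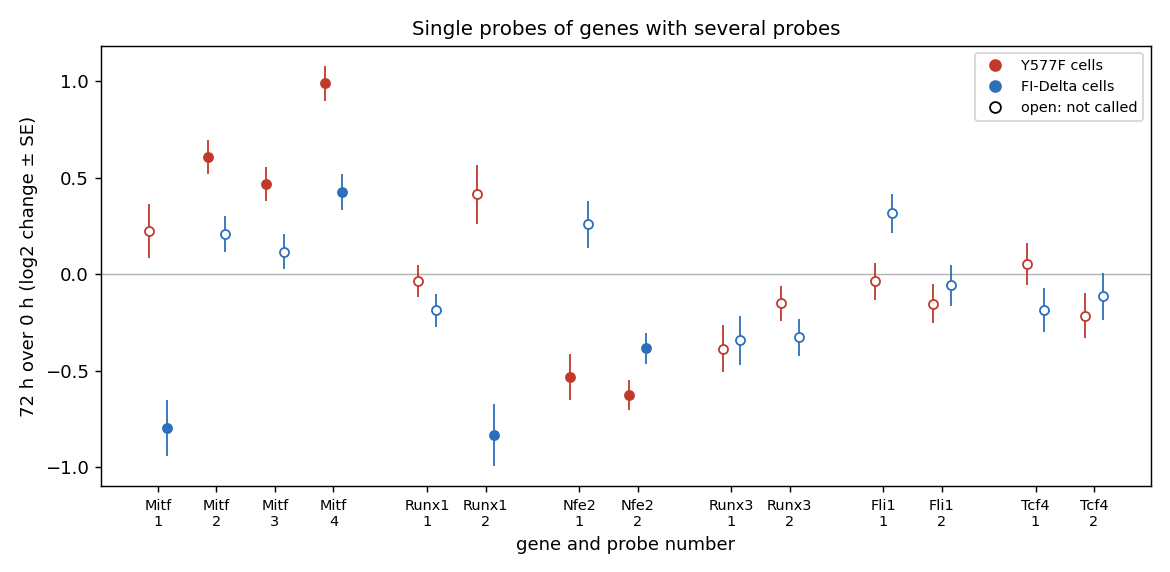
Points are the fitted log2 changes (72 h over 0 h, ± SE) of each probe of the 6 genes with more than 1 probe, Y577F cells in red left of FI-Delta cells in blue, filled where called. Probe 1 of Mitf and probe 2 of Runx1 were called lower in FI-Delta cells, while the other probes of these genes were not.

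Among the Krüppel-like factors, Klf6, which promotes inflammatory gene expression in macrophages, rose in both lines. Its time ratios were 0.64 and 0.86 in Y577F cells, against 1.01, 0.89 and 0.80 in FI-Delta cells. The lines overlapped. It rose by 0.87 ± 0.10 in Y577F cells (1.83-fold, adjusted p = 0.00013) and by 0.71 ± 0.11 in FI-Delta cells (1.64-fold, adjusted p = 0.0016). At 72 h it was higher in Y577F cells, at 0.49 and 0.64 (0.44 ± 0.10, adjusted p = 0.015), a call lost without either array (0.35 to 0.37), and its difference in change was not called (0.16 ± 0.12, adjusted p = 0.46). That difference was -0.13 from the time arrays alone and 0.33 from the arrays between the lines, so its sign was not settled. Klf2, a factor of resting lymphocytes and blood vessels, and Klf4, which can drive monocyte differentiation, lay between -0.11 and 0.19 in the 5 comparisons and were not called.

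Of the other Ets factors, Erg, which maintains stem cells, fell in both lines. Its time ratios were -0.59 and -0.40 in Y577F cells, against -0.40, -0.19 and -0.44 in FI-Delta cells, all below 0. It fell by 0.47 ± 0.09 in Y577F cells (adjusted p = 0.0026), a call lost without Y577F time array 1 (-0.36, adjusted p = 0.067), and fell by 0.39 ± 0.09 in FI-Delta cells (adjusted p = 0.021), a call lost without Y577F time array 1, 0 h array 1 or FI-Delta time array 3 (-0.38 to -0.32). Ets2, a target of ERK signalling in macrophages, was near 0.3 in both lines, at 0.31 ± 0.09 in Y577F cells (adjusted p = 0.030) and 0.30 ± 0.09 in FI-Delta cells (adjusted p = 0.067), and only the first passed. That call was lost without 0 h array 1 or 2, 72 h array 1 or 2 or either Y577F time array (0.29 to 0.33). Ets1, of lymphocytes, was lower in Y577F cells at 72 h, at -0.34 and -0.28 (-0.33 ± 0.08, adjusted p = 0.018), a call lost without either array (-0.40 to -0.29). Etv6, needed by adult stem cells, and Fli1, a platelet precursor factor, lay between -0.23 and 0.20 with no call.

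Mitf (chr6:97807002-98021360), a helix-loop-helix factor of mast cells, macrophages and osteoclasts, had time ratios of 0.68 and 0.40 in Y577F cells, against -0.03, 0.11 and -0.03 in FI-Delta cells. The lines did not overlap. It rose by 0.57 ± 0.09 in Y577F cells (adjusted p = 0.00073) and was at -0.01 ± 0.09 in FI-Delta cells (adjusted p = 0.97). After 72 h it was higher in Y577F cells, at 0.73 and 0.94 (0.80 ± 0.09, adjusted p = 8.8e-05), and at 0 h its ratios were 0.27, 0.15 and 0.12 (0.22 ± 0.08, adjusted p = 0.27). The mean near 0 in FI-Delta cells covers probes that moved apart, with probe 1 at -0.80 ± 0.15 (adjusted p = 0.0050), probe 4 at 0.43 ± 0.09 (adjusted p = 0.015) and probes 2 and 3 at 0.21 and 0.12, not called. In Y577F cells probes 2, 3 and 4 were called higher over time, at 0.61, 0.47 and 0.99. Probe 1 was not called there (0.23 ± 0.14, adjusted p = 0.34). For the difference in change all 4 probes were called, at between 0.35 and 1.02, and all 4 were higher in Y577F cells at 72 h, by 0.51 to 1.08. At 0 h probe 4 alone was called (0.45 ± 0.08, adjusted p = 0.018).

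The other leucine zipper and helix-loop-helix genes were not called. Bach1, a repressor that haem releases from DNA, had the widest spread of the 36 genes, with 0 h ratios of -0.39, 0.03 and 1.70. Its changes of 0.46 ± 0.29 in Y577F cells and 0.28 ± 0.31 in FI-Delta cells, and the 0.46 ± 0.29 between the lines at 72 h, could not be told from 0 with SEs of that size. Maf, a macrophage and helper T cell factor, was at 0.16 ± 0.08 in Y577F cells and -0.03 ± 0.08 in FI-Delta cells over time. Bach2, a repressor of B cells, and Tcf4, the E protein of plasmacytoid dendritic cells, stayed between -0.15 and 0.08.

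Zeb2 (chr2:44983512-45117442), a zinc finger repressor of monocytes and dendritic cells, had time ratios of 1.81 and 1.30 in Y577F cells, against 0.36, 1.00 and 0.52 in FI-Delta cells. All 5 were above 0 and the lines did not overlap. It rose by 1.48 ± 0.13 in Y577F cells (2.80-fold, adjusted p = 9.8e-06) and by 0.76 ± 0.13 in FI-Delta cells (1.69-fold, adjusted p = 0.0038). At 72 h its ratios between the lines were 1.00 and 0.89 (1.02 ± 0.13, adjusted p = 0.00024), and at 0 h they were 0.56, 0.50 and -0.20 (0.30 ± 0.11, adjusted p = 0.31).

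Sox4 (chr13:28948919-28953699), an HMG-box factor of early B cells and leukaemic progenitors, had time ratios of -1.04 and -0.74 in Y577F cells, against -0.78, -1.81 and -1.44 in FI-Delta cells. The dye swap, FI-Delta arrays 1 and 2, gave its lowest and highest value in that line, and the lines overlapped. It fell by 0.84 ± 0.09 in Y577F cells (1.79-fold, adjusted p = 7.5e-05) and fell by 1.51 ± 0.10 in FI-Delta cells (2.85-fold, adjusted p = 6.8e-06). At 72 h it was higher in Y577F cells, at 0.62 and 1.12 (0.82 ± 0.09, adjusted p = 0.00013), and at 0 h its ratios were -0.14, 0.26 and 0.43. Ikzf1, the Ikaros factor of lymphoid development, was at 0.35 ± 0.12 in Y577F cells (adjusted p = 0.064) and 0.27 ± 0.12 in FI-Delta cells, and Bcl6, of germinal centre B cells, at 0.09 ± 0.08 and -0.01 ± 0.09, with no call in any comparison.

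The promoters of Myb and Sox4 are shown because these genes fell most, Myb in Y577F cells and Sox4 in FI-Delta cells. Both are RefSeq windows of the same length on GRCm38.p6 and are written along the gene, at chr13:28953650-28953949 on the minus strand for Sox4 and chr10:21160935-21161234 on the minus strand for Myb. Capitals mark a motif match, of which Sox4 has 1 to the Ets box, at position -72, and Myb has none.
Sox4: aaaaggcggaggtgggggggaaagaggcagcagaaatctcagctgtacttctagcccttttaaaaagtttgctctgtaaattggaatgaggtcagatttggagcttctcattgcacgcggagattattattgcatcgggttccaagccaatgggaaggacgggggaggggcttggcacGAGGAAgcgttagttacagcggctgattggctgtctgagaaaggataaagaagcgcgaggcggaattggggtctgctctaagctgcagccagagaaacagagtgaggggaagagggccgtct
Myb: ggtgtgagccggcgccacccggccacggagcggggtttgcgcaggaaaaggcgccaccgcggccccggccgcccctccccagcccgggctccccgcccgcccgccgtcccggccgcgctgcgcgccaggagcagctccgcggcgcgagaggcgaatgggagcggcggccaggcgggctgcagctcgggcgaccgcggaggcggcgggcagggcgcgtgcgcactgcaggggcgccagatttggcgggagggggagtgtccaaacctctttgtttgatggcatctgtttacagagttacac

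The motifs were searched on both strands in the promoters of 30 of the 37 genes that matched the RefSeq table by symbol, 44 promoters in all. The PU.1-type Ets box GAGGAA was found in 28.3% of 32851 promoters and for 11 of the 30 genes. The 11 were Batf3, Hoxa9, Runx1, Sox4, Tal1 and Zeb2, and also Bach1, Bcl6, Gata1, Irf4 and Lyl1, which were called in no comparison. The STAT site TTCNNNGAA was found in 8.30% of all promoters and for 8 genes, which were Bach2, Batf3, Bcl6, Etv6, Gfi1b, Ikzf1, Irf8 and Zeb2. The GATA site AGATAA (11.2% of all promoters) was found for Erg and Tal1, the Runx site TGTGGT (16.8%) for 6 genes, and an interferon response element, GAAANN followed by GAAA (3.44%), for Etv6. A match is a description of these letters and not a binding site. Several genes had more than 1 promoter, so their share is not set against that of all promoters. Spi1, Fli1, Ets1, Nfe2, Lmo2, Maf and Tcf4 had no entry.

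Read by pattern, 9 of the 36 genes were called over time in both lines, each in the same direction in both. Of all features, 5.34% were called in both lines, and 96.2% of those had the same direction. The 5 that rose in both were Spi1, Irf5, Irf8, Klf6 and Zeb2, and the 4 that fell in both were Zfpm1, Runx3, Erg and Sox4. A further 7 were called in Y577F cells and not in FI-Delta cells, with Batf3, Hoxa9, Ets2 and Mitf higher and Gfi1b, Nfe2 and Myb lower. Tal1 and Runx1, both lower, were called in FI-Delta cells and not in Y577F cells. Of all features, 18.0% were called in Y577F cells and 8.16% in FI-Delta cells, so calls in Y577F cells alone were the more common there too. A call in 1 line and not in the other is not itself a difference, and Ets2 and Gfi1b were not called in the test of the difference. Estimates for the lines draw on shared arrays, so a shared direction is not independent support. With the replicate block and no dye term, the calls of Batf3, Gfi1b, Runx3 and Ets2 were lost in Y577F cells, and in FI-Delta cells the calls of Klf6 and Sox4 alone were kept.

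**Figure D3:**
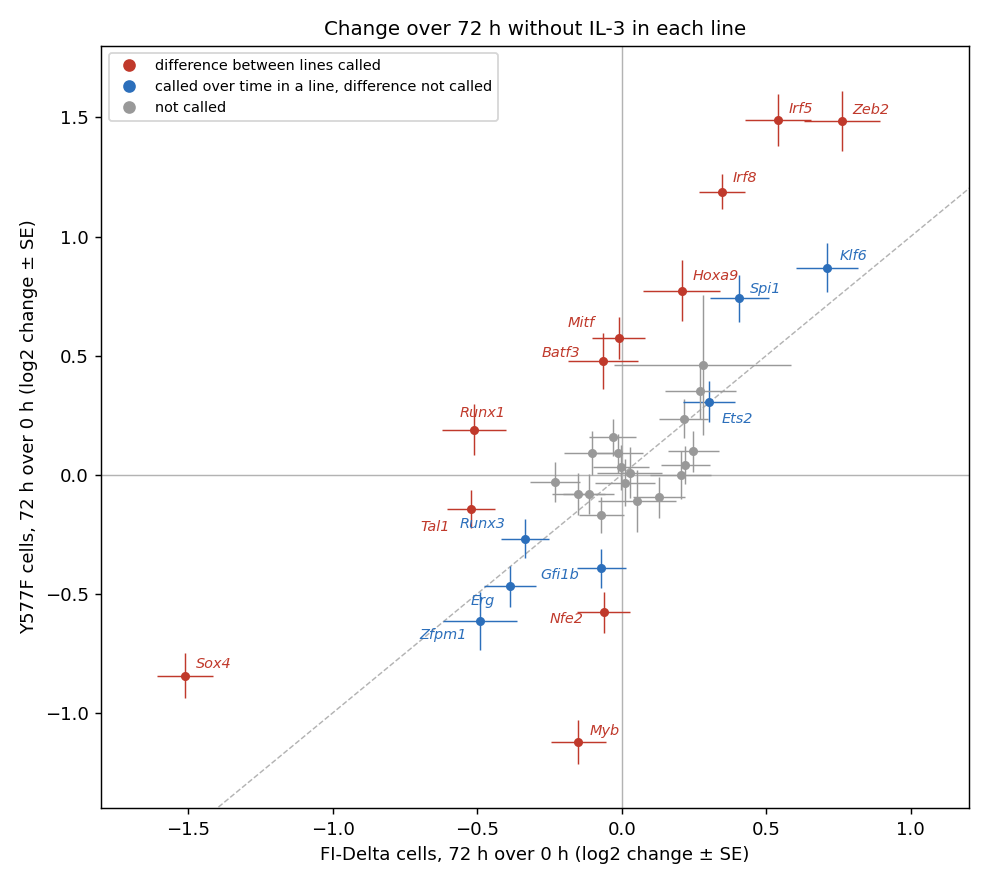
Each point is a gene, with its fitted log2 change (72 h over 0 h) in Y577F cells on the vertical axis and in FI-Delta cells on the horizontal axis, bars of 1 SE and a dashed line of equal change. Irf5, Zeb2 and Irf8 lie far above the line, Myb far below it, and Klf6, Erg, Runx3 and Zfpm1 close to it.

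The FI-Delta change was subtracted from the Y577F change to ask which genes responded unequally, and 11 of the 36 were called. It was most positive for Irf5 (0.95 ± 0.13, adjusted p = 0.00084), Irf8 (0.84 ± 0.09, adjusted p = 0.00015) and Zeb2 (0.72 ± 0.14, adjusted p = 0.0096), which rose in both lines and more in Y577F cells. The Zeb2 call was lost without 72 h array 2 (0.69, adjusted p = 0.068). Runx1 (0.70 ± 0.12, adjusted p = 0.0043), Sox4 (0.67 ± 0.11, adjusted p = 0.0027) and Tal1 (0.38 ± 0.09, adjusted p = 0.026) were also positive, and each fell in FI-Delta cells. Mitf (0.58 ± 0.10, adjusted p = 0.0039), Hoxa9 (0.56 ± 0.15, adjusted p = 0.035) and Batf3 (0.54 ± 0.14, adjusted p = 0.029) rose in Y577F cells and were not called in FI-Delta cells.

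The negative differences were those of Myb (-0.97 ± 0.11, adjusted p = 0.00022) and Nfe2 (-0.52 ± 0.10, adjusted p = 0.0083), which fell in Y577F cells. Calls of 3 of the smaller differences were lost without single arrays. For Batf3 and Tal1 these were Y577F time array 2, 0 h array 1, and 72 h array 1 or 2 (0.41 to 0.61 and 0.35 to 0.41), and for Hoxa9 Y577F time array 1, FI-Delta time array 2 or 3, 0 h array 1, and 72 h array 1 or 2 (0.41 to 0.61). With each RNA extract as a replicate block and no dye term, 8 of the 11 calls were lost (Irf5, Batf3, Nfe2, Tal1, Hoxa9, Mitf, Zeb2 and Sox4) and those of Irf8, Myb and Runx1 were kept. Without the dye term alone, those of Tal1 and Hoxa9 were lost.

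**Figure D4:**
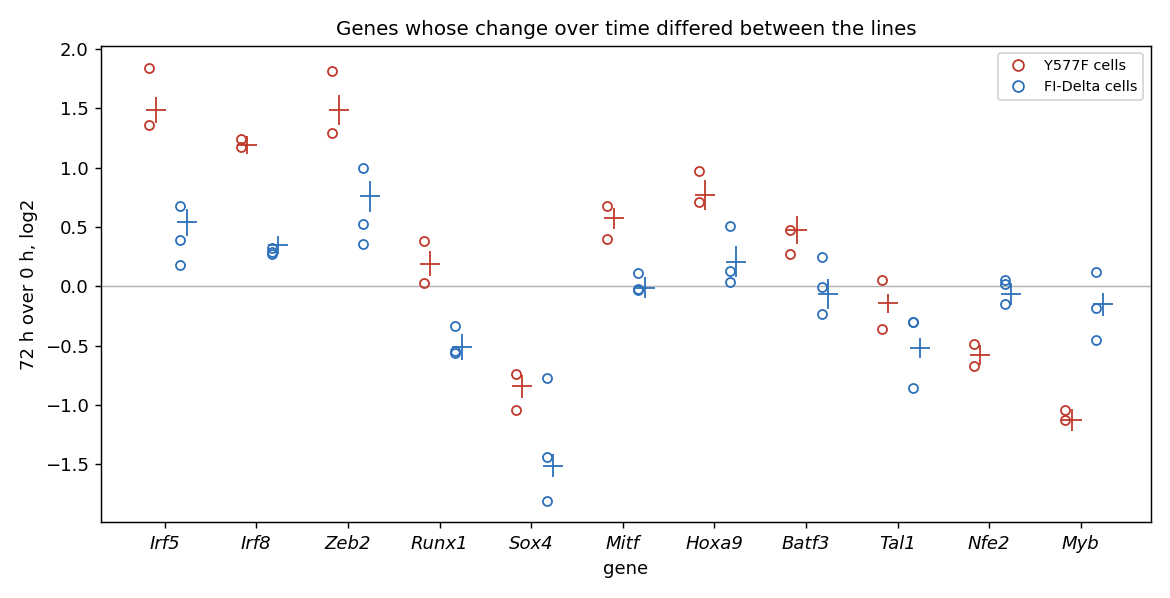
For the 11 genes whose change differed between the lines, circles are the log2 ratios (72 h over 0 h) on single time arrays, and crosses are the fitted change ± SE, with Y577F cells in red left of FI-Delta cells in blue. The arrays of the lines are apart for Irf5, Irf8, Zeb2, Runx1, Mitf, Hoxa9, Batf3, Nfe2 and Myb, and overlap for Sox4 and Tal1. For Batf3 the gap is narrow, with the lowest Y577F value at 0.27 and the highest FI-Delta value at 0.24.

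Set side by side, differences between the lines were larger and more often called at 72 h than at 0 h, where the 36 genes ran between -0.30 (Hoxa9) and 0.49 (Tal1). Of the 13 called at 72 h, 10 were also called in the difference of changes, and 3 (Lmo2, Klf6 and Ets1) were not. With the replicate block and no dye term, the 72 h calls of Batf3, Nfe2, Lmo2, Klf6 and Ets1 and the 0 h call of Tal1 were lost. At 0 h 35 genes were not called, 10 of them with an unadjusted p under 0.05, led in size by Irf5 (0.36 ± 0.10).

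**Figure D5:**
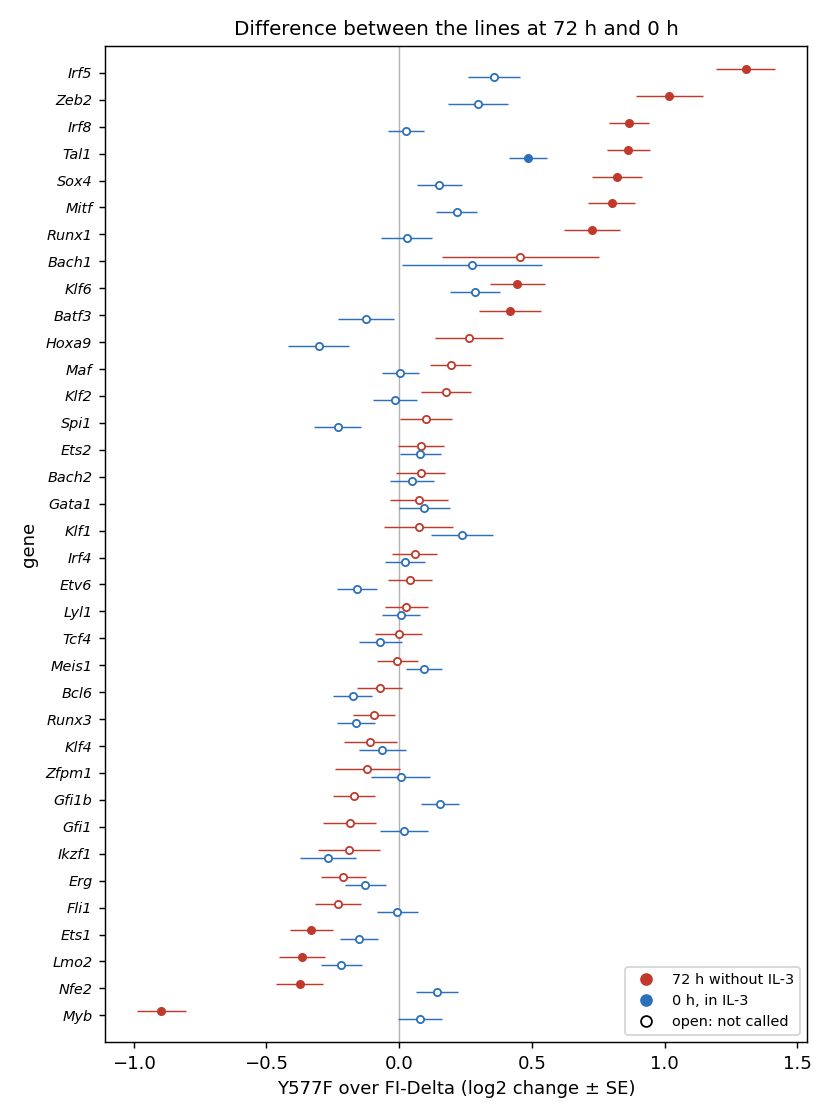
Points are the fitted log2 difference of Y577F over FI-Delta cells (± SE) for each gene, at 72 h without IL-3 in red and at 0 h in IL-3 in blue, filled where called. At 72 h the genes run between -0.90 (Myb) and 1.31 (Irf5), and at 0 h the single filled point is Tal1.

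Other transcription factors and cofactors of blood cells, a list of 95 of which 87 were measured, gave the surroundings of these genes. In Y577F cells 25 rose and 10 fell over time (40.2% called, against 18.0% of all features). The helix-loop-helix inhibitor Id2 rose by 1.82 ± 0.12, Cebpb by 1.36 ± 0.09, the Mitf relative Tfec by 1.31 ± 0.13 and the macrophage factor Egr2 by 1.21 ± 0.11. Without Y577F time array 1, 16 rose and 5 fell, and without Y577F time array 2, 6 fell. In FI-Delta cells 12 rose and 5 fell (19.5%, against 8.16%), with Ikzf2 at -1.61 ± 0.08, Id2 at 1.54 ± 0.12, the Myc antagonist Mxd1 at 1.13 ± 0.16 and Gata2 at -1.08 ± 0.11, and 7 rose without FI-Delta time array 3.

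Between the lines, 20 of the 87 were higher and 5 lower in Y577F cells at 72 h (28.7% called, against 12.9% of all features), with Mxd1 at -1.86 ± 0.15, Junb at 1.11 ± 0.10, Egr2 at 1.04 ± 0.11 and Ikzf2 at 1.00 ± 0.08. Without FI-Delta time array 2, 3 were lower, and without either 72 h array 2 were. At 0 h 1 was higher (Id3, 0.79 ± 0.13) and 1 lower (Mxd1, -0.90 ± 0.14), or 2.30% against 1.42%, and without 0 h array 1 neither was called (0.80 and -0.84, adjusted p of 0.19 and 0.17), while 2 were higher without FI-Delta time array 3 or without 72 h array 2. The difference in change was positive for 16 and negative for 3 (21.8%, against 9.24%), led by Egr2 (1.11 ± 0.13), Mxd1 (-0.96 ± 0.18), Junb (0.92 ± 0.11) and Ikzf2 (0.87 ± 0.09). It was positive for 9 without 0 h array 1 and for 8 without 72 h array 2.

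Genes that mark the cell types these factors serve also changed in the same comparisons, and their part in the results was not tested. Of 33 macrophage and dendritic cell genes, all 25 that were called rose in Y577F cells (75.8%, against 18.0% of all features, median 0.835), with Ctss at 3.14 ± 0.09 and Clec7a at 3.00 ± 0.09, and 17 rose and 4 fell in FI-Delta cells (63.6%, against 8.16%, median 0.465), with H2-Aa at -1.78 ± 0.10 and H2-Eb1 at -1.57 ± 0.13. Without FI-Delta time array 3, 10 rose in FI-Delta cells. The difference in change was positive for 20 and negative for 1 (63.6%, against 9.24%, median 0.539), led by H2-Aa at 2.36 ± 0.12. Of 19 neutrophil genes, 4 rose and 6 fell in Y577F cells (52.6%, median -0.045), with Fpr2 at 2.37 ± 0.14 and Ctsg at -1.57 ± 0.10, and all 15 that were called rose in FI-Delta cells (78.9%, median 0.977), with Ltf at 2.45 ± 0.23 and Mmp8 at 2.21 ± 0.17. Their difference was positive for 3 and negative for 15 (94.7%, median -1.28), with Ltf at -2.21 ± 0.26, and positive for none without 72 h array 2.

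Of 22 red cell genes, 1 rose and 3 fell in Y577F cells (18.2%, close to the 18.0% of all features), with the alpha globin gene Hba-a1 at -1.82 ± 0.08 and the transferrin receptor gene Tfrc at -0.98 ± 0.08, and 1 fell in FI-Delta cells (Hba-a1, -1.30 ± 0.08), or 4.55% against 8.16%. The 1 that rose, Epor (0.33 ± 0.08), was not called without Y577F time array 1 or 2 (0.34 to 0.39), and a second was called without 0 h array 2. Of 20 megakaryocyte and platelet genes, 6 rose and 3 fell in Y577F cells (45.0%), with F2r at -1.62 ± 0.11 and Plek at 1.17 ± 0.08, and 3 rose and 3 fell in FI-Delta cells (30.0%), with F2r at -2.34 ± 0.11 and Itga2b at -1.99 ± 0.11. The 3 that rose were 1 without any 1 of FI-Delta time array 2 or 3, 0 h array 2, and 72 h array 1 or 2.

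Of 14 mast cell and basophil genes, 1 rose and 5 fell in Y577F cells (42.9%, against 18.0% of all features), with Mcpt8 at -1.06 ± 0.12, and the call that rose was lost without Y577F time array 1. In FI-Delta cells all 5 that were called fell (35.7%, against 8.16%), with Gzmb at -2.67 ± 0.12 and Cpa3 at -2.57 ± 0.10. Of 10 progenitor markers, 2 rose and 1 fell in Y577F cells (30.0%), with Cd48 at -0.89 ± 0.10 and Cd93 at 0.85 ± 0.09, and 1 rose without Y577F time array 1. In FI-Delta cells 2 rose and 3 fell, with Cd34 at -1.12 ± 0.10, and 1 rose without any 1 of FI-Delta time array 3, Y577F time array 1, 0 h array 1, and 72 h array 1 or 2. Of 19 lymphoid markers, 2 rose and 1 fell in Y577F cells (15.8%), with Dntt at -0.53 ± 0.08, and 1 rose in FI-Delta cells (5.26%; Cd3d, 0.62 ± 0.17), a call lost without any 1 of the 0 h arrays, 72 h array 1, Y577F time array 1, or FI-Delta time array 2 or 3 (0.38 to 0.69).

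The same markers also differed between the lines, at 72 h and already at 0 h. Of the 19 neutrophil genes, 3 were higher and 15 lower in Y577F cells at 72 h (94.7%, against 12.9% of all features), with the granule genes Camp at -3.94 ± 0.15 and Ngp at -3.59 ± 0.14. At 0 h 1 was higher and 13 lower (73.7%, against 1.42%), with Ngp at -1.83 ± 0.12 and Camp at -1.78 ± 0.13, and the 1 that was higher was lost without any 1 of the 0 h arrays or Y577F time array 2. Of the macrophage and dendritic cell genes, 22 were higher and 1 lower at 72 h (69.7%), with the class II gene H2-Eb1 at 3.29 ± 0.13. At 0 h 7 were higher and 1 lower (24.2%), with H2-Ab1 at 1.31 ± 0.08 and H2-Eb1 at 1.24 ± 0.11. Without 0 h array 1, 2 were higher, and the 1 that was lower was lost without any 1 of the 0 h arrays, Y577F time array 2 or 72 h array 1.

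Mast cell and basophil genes were called in the same numbers at both times, with 3 higher and 1 lower in Y577F cells (28.6%, against 12.9% of all features at 72 h and 1.42% at 0 h). The protease gene Gzmb was at 2.79 ± 0.12 at 72 h and 0.86 ± 0.11 at 0 h, and Cpa3 at 2.29 ± 0.10 and 0.49 ± 0.09. The 4 calls at 0 h were lost without 0 h array 1, and the lower one also without 0 h array 2. For Cpa3 the 0 h call ended in 5 leave-one-out fits, at 0.435 to 0.633. The array left out was any of those at 0 h, the first at 72 h, or the second for Y577F cells over time. Megakaryocyte and platelet genes were higher for 6 and lower for 1 at 72 h (35.0%), with Itga2b at 1.75 ± 0.10, and higher for 3 at 0 h (against 1.42% of all features), with F2r at 0.66 ± 0.10. The 1 that was lower at 72 h was lost without 72 h array 1, and 1 was lower at 0 h without 72 h array 2.

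Progenitor markers were higher for 5 and lower for 1 at 72 h (60.0%), with Cd34 at 1.34 ± 0.09, and higher for 3 at 0 h (30.0%), with Cd48 at 0.52 ± 0.09. The 3 were lost without any 1 of the 0 h arrays, 1 was left without 72 h array 1, and 1 was lower without FI-Delta time array 2. Red cell genes were higher for 2 and lower for 3 at 72 h (22.7%), with Tfrc at -1.17 ± 0.08. Without 72 h array 1 or 2, 1 was lower, and without 72 h array 2, 1 was higher. At 0 h the largest red cell difference, that of Car2 at 0.40 ± 0.10, was not called (adjusted p = 0.079). Lymphoid markers were higher for 1 (Vpreb1, 0.64 ± 0.09) and lower for 1 (Cd3d) at 72 h (10.5%, against 12.9% of all features). Without Y577F time array 1, 2 were higher, and without Y577F time array 2, 2 were lower. At 0 h 1 was higher (Vpreb1, 0.38 ± 0.08), a call lost without 0 h array 1 or 2, 72 h array 1, either Y577F time array, or FI-Delta time array 2 or 3 (0.31 to 0.39). How far these marker differences bear on those of the transcription factors was not tested.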

How the data were processed

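The authors deposited 1 table of log2 ratios per array, and limma is named in the submitters' processing notes without a version. The log base is read as 2 because limma writes log2 values. The labels give the dye of each RNA but not which dye is on top of the ratio, so Cy5 over Cy3 is the likely direction, and the opposite would turn every sign. How background and dye bias were corrected within arrays is not given here, and no counts or intensities were used.

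Each of 23040 spots was kept unless it was 1 of 1243 controls, and 21797 probes remained. Probes with 1 symbol (16651) were averaged by gene, and probes with several symbols (137) or none (5009) stood alone, which gave 20243 features with 0 missing values. The FI-Delta dye swap was averaged, which left 9 hybridisations. limma 3.58.1 in R 4.3.3 fitted them all together, with 3 coefficients between the 4 kinds of RNA plus 1 for dye (5 residual and 6.34 prior degrees of freedom), so each estimate also draws on the other arrays and can lie outside the range of its own. Adjusted p-values are Benjamini-Hochberg over all 20243 features, and a call is an adjusted p under 0.05. Arrays that share an RNA extract enter the p-values as if they were independent.

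The code was tested on simulated data. The members and the lists of other transcription factors, erythroid, megakaryocyte, mast cell, neutrophil, macrophage, progenitor and lymphoid genes were chosen with earlier results of these data known. Every member is named, and of each other list at most the 4 largest called changes per comparison. Extracts were read from the labels' line, time and replicate number. In the main fit these numbers set which arrays were averaged as the dye swap, and an alternative also used them for the replicate blocks. Alternatives were a replicate block, the direct arrays alone, array weights, no dye term, scaling between arrays, the swap kept as separate arrays, single probes and leaving out each array.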

Additional observations from a re-analysis of the deposited data

Results flagged for a closer look

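In 11 of the 36 genes the change over 72 h differed between Y577F and FI-Delta cells by the test of the difference itself, the interaction of line and time in limma, at an adjusted p under 0.05. Values are log2 changes in Y577F cells minus those in FI-Delta cells. They were 0.95 for Irf5, 0.84 for Irf8, 0.72 for Zeb2, 0.70 for Runx1 and 0.67 for Sox4. They were 0.58 for Mitf, 0.56 for Hoxa9, 0.54 for Batf3 and 0.38 for Tal1. Negative differences were -0.97 for Myb and -0.52 for Nfe2. Of all features, 9.24% were called in this test. With each RNA extract as a replicate block and no dye term, the calls of Irf8, Myb and Runx1 were kept and the other 8 were lost. With single probes, the Runx1 difference was called for probe 2 (1.25) and not for probe 1 (0.15). The Nfe2 difference was called for probe 1 (-0.79) and not for probe 2 (-0.24). Among single arrays, leaving out 0 h array 1, 72 h array 1 or 72 h array 2 each ended 12 of the 52 calls in all comparisons, more than any other array.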

How the results depend on the processing

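Of 52 calls of the 36 genes in the 5 comparisons, 21 were kept under each alternative run, 29 when each array was left out in turn, and 0 changed sign. Calls were most often lost with the replicate block for each RNA extract, without the dye term (27 of 52), and with the direct arrays alone (25). With the replicate block 2 genes were called over time in FI-Delta cells (Klf6 and Sox4), 8 between the lines at 72 h, 3 in the difference (Irf8, Myb and Runx1) and 0 by limma at 0 h, where 5 had an unadjusted p under 0.05. With the direct arrays alone 5 were called in FI-Delta cells, 1 in the difference (Irf8) and 0 by limma at 0 h, where 2 had an unadjusted p under 0.05. With each probe as its own feature, 2 genes were called at 0 h. Leaving out each array in turn gave 11 to 18 calls in Y577F cells and 4 to 11 in FI-Delta cells, with 6 without 0 h array 1 and 4 without FI-Delta time array 3. It gave 8 to 13 between the lines at 72 h (8 without 72 h array 2), 0 to 1 at 0 h (0 without 0 h array 1, with 2 at an unadjusted p under 0.05) and 7 to 12 in the difference (7 without 72 h array 2). The cause of these losses was not tested. With 2 or 3 arrays a side, small changes could not be measured, and a gene that was not called is not shown to be unchanged.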
